A study of Mus musculus with 4 samples.

Results

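The genes described here are those of the colony stimulating factor (CSF) system and of macrophage identity, chosen by name: *Csf1*, *Csf1r*, *Csf2ra*, *Csf2rb*, *Csf2rb2*, *Spi1*, *Adgre1* (older symbol *Emr1*) and *Cd86*. The 9 symbols of the list found 8 of the 12661 genes in the table, since *Emr1* is the same gene as *Adgre1*. The RNA was that of femoral artery surroundings, mainly perivascular adipose tissue (PVAT), from wild type C57BL/6 female mice that were 11 weeks old by the labels. All mice, sham-operated ones included, had been ovariectomized, and tissue was collected 48 h after insertion of a wire into the artery (injury) or after a sham operation. Each group had 2 libraries of 480 ng total RNA. The labels do not say whether the 2 libraries of a group came from separate mice, so p-values measure only the spread between these libraries.

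Macrophages live and renew under the control of CSF1 (M-CSF), a cytokine made by stromal and endothelial cells, which acts on the receptor tyrosine kinase CSF1R of monocytes and macrophages. GM-CSF (CSF2) acts on a second receptor, made of a ligand-binding alpha chain (*Csf2ra*) and a signalling beta chain (*Csf2rb*). Mice carry a further beta chain gene, *Csf2rb2*, whose product serves the IL-3 receptor. PU.1, the product of *Spi1*, is the transcription factor that sets the myeloid fate and drives both *Csf1r* and the GM-CSF receptor genes. *Adgre1* encodes F4/80, the surface protein by which the study stained macrophages, and *Cd86* encodes a costimulatory ligand that macrophages and dendritic cells show to T cells.

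The values are signed numbers on a log-like scale, and neither the base of the scale nor what 0 stands for is stated. The median of each library lies within 0.0062 of 0, while single genes need not average 0 over the 4 libraries (*Adgre1* averaged -0.62), and 23.7% of genes had the same sign in all 4. The values are called deposited units here and are read only as differences between libraries. Where one gene, or the median of a list, is subtracted from another within a library, only the shift of that contrast from sham to injury is read, since its size in a library is no comparison of levels. No library's read depth is known, nor any gene's abundance. Differences are injury minus sham and were tested with limma, with Benjamini-Hochberg adjustment over all 12661 genes and a threshold of 0.05.

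Promoters of 3 of the 8 genes, *Csf1*, *Csf2ra* and *Csf2rb2*, were found in the RefSeq table (build GRCm38.p6). All promoters found there are shown, whatever the role or test result of the gene. They belong to the ligand gene, to the alpha chain gene and to a beta chain gene. Each holds 250 bases before and 30 bases from the RefSeq start, and its coordinates are those of its exact match in NCBIM37, the assembly of mm9 to which the authors aligned. Capitals mark matches, on either strand, to the PU box (GAGGAA), the core of PU.1 binding sites, and to the cyclic AMP response element (TGACGTCA).
Csf1 promoter, chr3:107563358-107563637, minus strand: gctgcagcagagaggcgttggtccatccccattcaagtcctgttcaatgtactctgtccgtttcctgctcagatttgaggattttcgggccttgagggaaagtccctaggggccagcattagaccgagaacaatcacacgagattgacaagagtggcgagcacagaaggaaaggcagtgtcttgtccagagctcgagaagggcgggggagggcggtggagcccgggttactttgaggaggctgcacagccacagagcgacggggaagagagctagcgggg
Csf2ra promoter, chr19:61304292-61304571, minus strand: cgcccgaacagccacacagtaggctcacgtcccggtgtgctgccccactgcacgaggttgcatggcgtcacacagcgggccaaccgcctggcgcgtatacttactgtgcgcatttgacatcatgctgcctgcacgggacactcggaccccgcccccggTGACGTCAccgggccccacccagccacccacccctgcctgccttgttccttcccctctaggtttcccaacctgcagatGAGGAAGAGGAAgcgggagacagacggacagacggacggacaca
Csf2rb2 promoter, chr15:78136122-78136401, minus strand: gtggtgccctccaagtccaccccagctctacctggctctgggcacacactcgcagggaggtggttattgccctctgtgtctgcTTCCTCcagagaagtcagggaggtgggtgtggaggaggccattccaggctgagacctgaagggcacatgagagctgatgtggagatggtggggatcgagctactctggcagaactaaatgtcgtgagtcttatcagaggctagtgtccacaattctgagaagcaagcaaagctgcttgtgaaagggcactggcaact

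The *Csf2ra* promoter held 2 adjoining PU boxes, which begin 14 and 8 bases before the start, and a cyclic AMP response element that begins 92 bases before it. The *Csf2rb2* promoter held 1 PU box, on the opposite strand. The *Csf1* promoter held neither motif. Of all 32851 promoter windows of this length in the table, 26% held a PU box and 1.74% the cyclic AMP response element. An AP-1 motif (TGANTCA, on both strands), held by 7.46% of the windows, was in none of the 3 promoters. These motifs were chosen after the sequences were seen, and a match or its absence is a description of letters only.

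After injury *Csf1r*, *Csf2ra* and *Cd86* rose, while *Spi1* and *Adgre1* had higher means that did not pass the threshold and the differences of *Csf1*, *Csf2rb* and *Csf2rb2* were 0.51 or less. Of the 8 genes 3 were called higher and 0 lower, against 3.76% and 3.67% of all genes tested (7.43% in either direction). At a threshold of 0.1 there were 4 called higher, against 9.21% of all genes, and 5 were higher with an unadjusted p under 0.05, against 14.8%. The median difference of the 8 genes was 1.19 deposited units, beside 0.01 over all genes. In 7 of the 8 both injury libraries lay above both sham libraries, as in 31.6% of all genes, and the exception was *Csf2rb2*. In none of the 8 were both below, as in 30.3% of all genes. In bulk tissue, more cells of a type and more RNA per cell cannot be told apart.

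**Figure D1:**
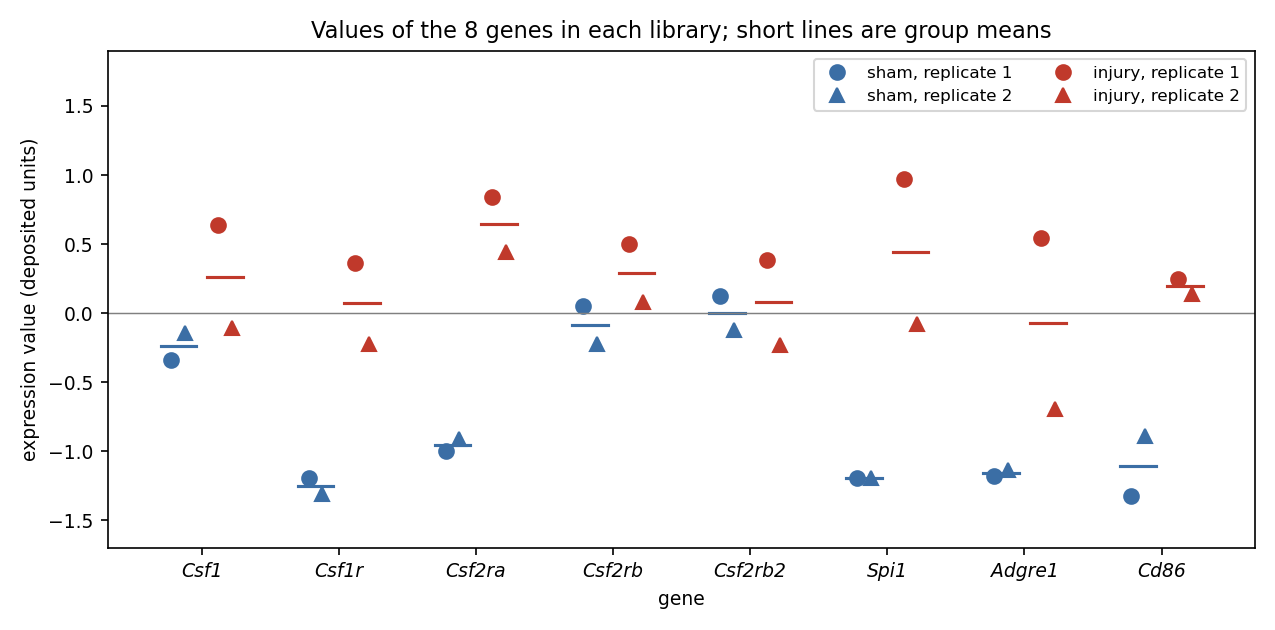
Expression value (vertical axis, deposited units) of the 8 genes (horizontal axis) in the 2 sham and 2 injury libraries, with symbols for the replicate and short lines for group means. The sham libraries of *Csf1r*, *Csf2ra*, *Spi1*, *Adgre1* and *Cd86* lie below the injury libraries, while the groups of *Csf1* and *Csf2rb* nearly touch and those of *Csf2rb2* overlap.

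The ligand gene *Csf1* (chr3:107543966-107563387 of mm9, minus strand) had values of -0.34 and -0.14 in sham replicates 1 and 2 and of 0.64 and -0.11 in injury replicates 1 and 2. Injury replicate 1 stood apart, and injury replicate 2 lay only 0.04 above the higher sham library. The difference of 0.51 (standard error 0.27, 95% interval -0.16 to 1.17) was not called (adjusted p = 0.273 in limma). It was 0.13 without injury replicate 1. Without injury replicate 2 it was 0.88 and was called (adjusted p = 0.0368 from limma), so its size rested on which injury library was kept. The genes whose 4 values were nearest to those of *Csf1*, by root mean square difference over the 4 libraries, were *Tor3a* (0.04), *Usb1* (0.05) and *Traf1* (0.06).

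*Csf1r*, the receptor of CSF1 (chr18:61265226-61291803, plus strand), was at -1.20 and -1.31 in the sham libraries and at 0.36 and -0.22 in the injury libraries. The groups did not overlap, and the lower injury library lay 0.98 above the higher sham library. From a sham mean of -1.25 ± 0.08 (SD, n = 2) to an injury mean of 0.07 ± 0.41 (SD, n = 2) it rose by 1.33 (standard error 0.22; limma, adjusted p = 0.0344). The call was lost with a variance trend on the mean value (adjusted p = 0.0633 from limma) and without any one library except injury replicate 2 (adjusted p = 0.0533 to 0.19 from limma). *Hmgxb3*, on the opposite strand, shares 871 bases with the annotated span of *Csf1r*, and none of the other 7 genes overlaps a neighbour in the GENCODE annotation. The nearest genes to *Csf1r* were *Fcgr3*, an Fc receptor (0.05), and the complement genes *C1qa* (0.07) and *C1qb* (0.09), which rose by 1.31, 1.24 and 1.36 units.

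*Csf1r* minus *Csf1* within a library was -0.86 and -1.17 after sham operation and -0.27 and -0.11 after injury. The contrast shifted by 0.82. An exact two-sided permutation test over 2 against 2 libraries cannot go below p = 0.333, so the shifts of this and of 5 other pairs of the 8 genes are given as descriptions, chosen with the differences of the single genes known.

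*Csf2ra*, the alpha chain of the GM-CSF receptor (chr19:61300305-61304321, minus strand), was at -0.997 and -0.909 after sham operation and at 0.84 and 0.44 after injury. Both injury libraries were far above both sham libraries, the lower of them by 1.35. The difference of 1.60 (standard error 0.18, 95% interval 1.15 to 2.05) passed the threshold (adjusted p = 0.0285 from limma). *Csf2ra* was called in all 7 alternatives that keep the 4 libraries, and was not called without sham replicate 1 or 2 (adjusted p = 0.176 and 0.113 from limma). The nearest genes were *Pik3r5* (0.07), *Ptpn22* (0.08) and *Cyba* (0.08).

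The beta chain genes were not called. *Csf2rb* (chr15:78156420-78184277, plus strand) was at 0.05 and -0.22 in the sham libraries and at 0.50 and 0.08 in the injury libraries. The groups did not overlap, but injury replicate 2 and sham replicate 1 were only 0.03 apart. The difference of 0.38 had a 95% interval of -0.13 to 0.88 (adjusted p = 0.277 from limma). It was 0.17 without injury replicate 1, 0.24 without sham replicate 2 and 0.58 without injury replicate 2, and was called in none of these. The nearest genes were *Klf6* (0.05), *Synj1* (0.05) and *Tmem189* (0.06).

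*Csf2rb2* (chr15:78112947-78136052, minus strand), which lies beside *Csf2rb*, was at 0.13 and -0.12 after sham operation and at 0.39 and -0.23 after injury. The groups overlapped, with an injury library as the lowest and the other as the highest of the 4. The difference was 0.08 (95% interval -0.52 to 0.68, adjusted p = 0.859 from limma). It changed sign, to -0.23, without injury replicate 1, and to -0.05 without sham replicate 2, and was 0.20 and 0.38 without sham replicate 1 and injury replicate 2. The nearest genes were *Hist3h2a* (0.05), *Tnip1* (0.06) and *Dnaaf3* (0.06). The intervals of both beta chain genes lay below the difference of *Csf2ra*.

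*Csf2ra* minus *Csf2rb* within a library was -1.05 and -0.68 after sham operation and 0.34 and 0.36 after injury, a shift of 1.22. For *Csf2ra* minus *Csf2rb2* the values were -1.12 and -0.78, then 0.46 and 0.67, a shift of 1.52. The other pairs shifted by 0.30 (*Csf2rb* minus *Csf2rb2*), 0.31 (*Spi1* minus *Csf1r*) and 0.24 (*Csf1r* minus *Adgre1*). Values of the beta chain genes may be uncertain, because their coding sequences, of 2691 and 2637 bases, are 95.2% identical over 2631 aligned bases. Of 50-base windows, 18.3% of those in the *Csf2rb* transcript also occur in *Csf2rb2*, and 18.9% in the other direction. The reads of the study were longer than these windows, and longer stretches are shared less often. Whether shared sequence affected the values was not tested. How reads that fit both genes were counted is not given in the sources used here.

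**Figure D2:**
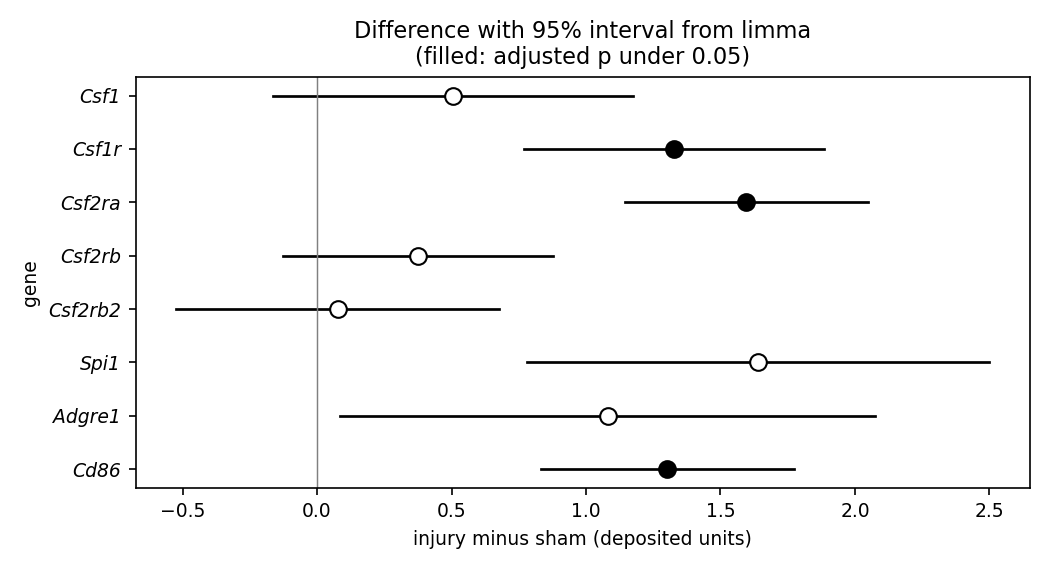
Injury minus sham (horizontal axis, deposited units) for each of the 8 genes (vertical axis), with points for the limma estimate, lines for its 95% interval and filled points for an adjusted p under 0.05. *Csf1r*, *Csf2ra* and *Cd86* are filled; the intervals of *Csf1*, *Csf2rb* and *Csf2rb2* cross 0, and those of *Spi1* and *Adgre1* are wide.

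*Spi1*, the gene of PU.1 (annotated as *Sfpi1*, chr2:90922547-90955913, plus strand), was nearly equal in the sham libraries, at -1.20 and -1.19, and stood at 0.97 and -0.08 in those after injury. The injury libraries were 1.05 apart, and both were above the sham libraries. The difference of 1.64 was the largest of the 8 genes, but with a standard error of 0.34 it stayed just above the threshold (adjusted p = 0.0509 from limma). Over the 7 alternatives with 4 libraries the adjusted p ran from 0.0469 to 0.0547, and 3 of them were below 0.05 (the replicate block, columns brought to a common spread and the variance trend). The difference was 1.11 without injury replicate 1, 2.16 without injury replicate 2 and 1.64 without either sham replicate. The nearest genes were *Lcp2* (0.07), *Snx20* (0.08) and *Ptafr* (0.09).

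*Adgre1* (annotated as *Emr1*, chr17:57498109-57622952, plus strand), the F4/80 gene, was at -1.179 and -1.133 after sham operation and at 0.55 and -0.69 after injury. The sham libraries agreed within 0.05, while the injury libraries were 1.24 apart, the widest gap of the 8 genes. Both injury values were above the sham values, but the difference of 1.08 came with a standard error of 0.40 and was not called (limma, adjusted p = 0.147). It was 0.46 without injury replicate 1. Without injury replicate 2 it was 1.70 and was called (adjusted p = 0.0076 from limma). The nearest genes were farther away than those of any other of the 8, *Ccl8* at 0.20, *Padi4* at 0.24 and *Ms4a6b* at 0.26.

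*Cd86* (chr16:36603955-36666167, minus strand) was at -1.33 and -0.89 in the sham libraries and at 0.25 and 0.14 in the injury libraries. Here the injury libraries lay close together, 0.11 apart, and the sham libraries were 0.44 apart. The difference of 1.303 (standard error 0.19) was called (adjusted p = 0.0294 from limma). It was not called without sham replicate 1, sham replicate 2 or injury replicate 1 (adjusted p = 0.065 to 0.176 from limma). A heat map of the study, drawn from its RNA sequencing, includes *Cd86* among genes it shows as upregulated, so its direction is not independent evidence. Nor are the directions of the other genes described here, which were chosen with earlier results of these data known. The nearest genes to *Cd86* were *Il1rl1* (0.14), *Nup210* (0.15) and *Apoc2* (0.17).

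Among all 12661 differences *Csf1r*, *Csf2ra*, *Spi1*, *Adgre1* and *Cd86* ranked at 319, 199, 168, 468 and 333 from the top. *Csf1*, *Csf2rb* and *Csf2rb2* ranked at 1475, 2188 and 5340. Among the 8 the closest pair by root mean square difference was *Csf2rb* and *Csf2rb2* (0.18), followed by *Csf1* and *Csf2rb* (0.23) and by *Csf1r* and *Adgre1* (0.27). The farthest were *Csf2rb2* and *Spi1* (0.90).

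**Figure D3:**
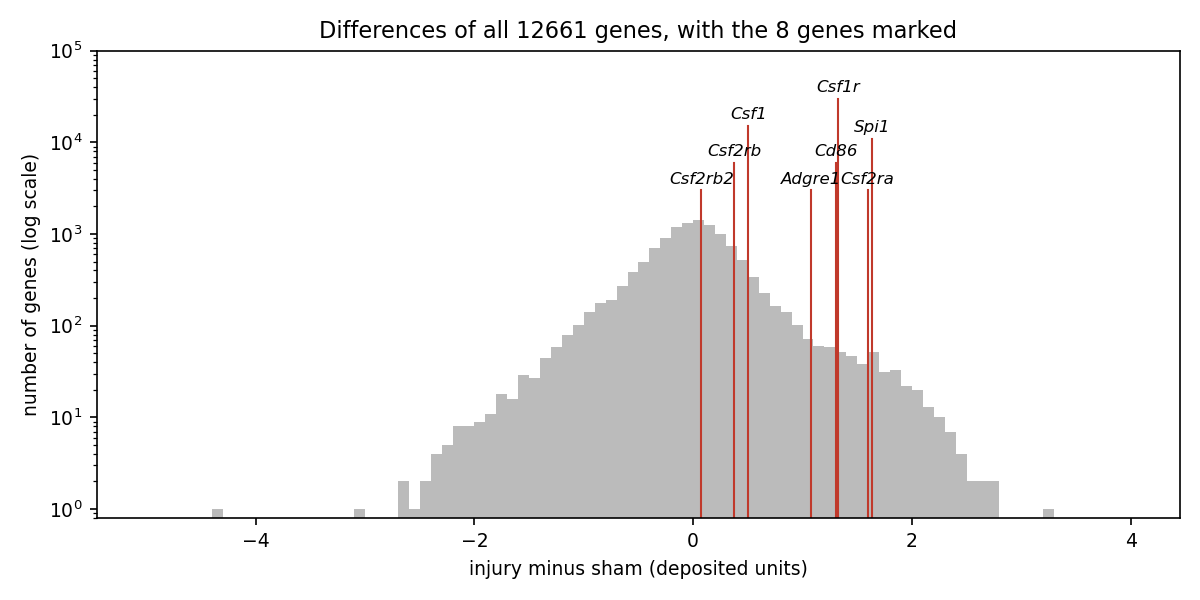
Number of genes (vertical axis, log scale) by injury minus sham (horizontal axis, deposited units) for all 12661 genes, with red lines at the 8 genes. *Csf2rb2*, *Csf2rb* and *Csf1* sit in the body of the distribution, and *Adgre1*, *Cd86*, *Csf1r*, *Csf2ra* and *Spi1* lie between 1.08 and 1.64 in its upper tail.

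Injury replicate 1 exceeded injury replicate 2 in each of the 8 genes, by 0.11 (*Cd86*) to 1.24 (*Adgre1*) with a median of 0.60, where the median over all genes was -0.01. In 4 of the 8, this gap was larger than the step from the higher sham library up to injury replicate 2. The same libraries stood apart in leukocyte markers. The median of 6 pan-leukocyte genes such as *Coro1a* and *Laptm5* was -1.34 and -1.33 in the sham libraries, 0.91 in injury replicate 1 and 0.14 in injury replicate 2. Of these 6 genes 5 were called higher, all 6 had injury libraries above sham libraries, and their median difference was 1.85. Smooth muscle genes, at medians of 1.72 and 1.03 after sham operation, were at -1.55 in injury replicate 1 and at -0.21 in injury replicate 2. The part of cell composition in the differences of the 8 genes was not tested.

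Set against the pan-leukocyte median of the same library, *Spi1* was at 0.14 and 0.13 after sham operation and at 0.06 and -0.22 after injury, and its shift was -0.22. For *Csf2ra* the shift was -0.26 and for *Csf1r* -0.53, *Cd86* -0.56 and *Adgre1* -0.78. *Csf1* (-1.35), *Csf2rb* (-1.48) and *Csf2rb2* (-1.78) shifted most. All 8 genes thus differed by less than the median of these leukocyte markers did. Against the median of the macrophage identity list the shifts were 0.58 for *Csf2ra*, 0.62 for *Spi1*, 0.31 for *Csf1r*, 0.28 for *Cd86*, 0.06 for *Adgre1*, -0.51 for *Csf1*, -0.65 for *Csf2rb* and -0.94 for *Csf2rb2*. These are descriptions, with no test.

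Genes that act beside the 8 were read from lists by role. Of the other cytokines and receptors of these families, 7 of 12 were in the table and 0 were called by limma, with 3 at an unadjusted p under 0.05, all higher after injury. *Csf3r*, the G-CSF receptor of neutrophils, was at -1.46 and -0.97 after sham operation and at 1.56 and 0.18 after injury, a difference of 2.09 (adjusted p = 0.055 from limma). *Flt3*, a receptor of dendritic cell progenitors, differed by 0.80 (adjusted p = 0.0502 from limma) and *Il3ra*, which pairs with the beta chains, by 0.52 (adjusted p = 0.0829 from limma). *Il34*, the other ligand of CSF1R, differed by -0.13 (adjusted p = 0.564 from limma), with both injury values below both sham values. *Csf2*, *Csf3*, *Il3*, *Il5* and *Il5ra* were not analysed here.

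Genes that signal after CSF1R rose in part. Of 10 in the table, 5 were called higher and 0 lower, with a median difference of 1.21. They were the adaptor *Tyrobp* (1.62), the kinase *Syk* (1.52), the phosphatases *Ptpn6* (1.80) and *Inpp5d* (1.179) and the kinase subunit *Pik3cd* (1.60). The other 5 did not pass the threshold: the kinase subunit gene *Pik3cg* (1.24), the adaptor genes *Grb2* (0.48) and *Gab2* (0.02), the phospholipase gene *Plcg2* (0.30) and the ubiquitin ligase gene *Cbl* (-0.38). After the GM-CSF receptor, 1 of 9 genes was called higher and 0 lower, with a median of 0.12. The kinase gene *Jak2* (-0.22) and the factors *Stat5a* (0.03) and *Stat5b* (-0.13), which relay the beta chain signal, did not pass the threshold, nor did the feedback genes *Cish* (0.19) and *Socs2* (-0.33) or *Pim1* (1.12, adjusted p = 0.0603 from limma).

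Of 10 genes whose promoters PU.1 is known to bind, 7 were called higher and 0 lower, with a median difference of 1.55, and all 10 had injury libraries above sham libraries. The protease gene *Ctss* (2.18), the Fc receptor gene *Fcgr1* (2.14), the oxidase gene *Cybb* (1.92) and the integrin gene *Itgam* (1.61) had the largest differences of those called. *Tlr4* (0.50), *Msr1* (1.41) and *Cd68* (1.21) did not pass the threshold. In other lists the median difference was 1.85 for pan-leukocyte, 1.86 for neutrophil, 1.21 for macrophage identity and 0.78 for monocyte genes. Of 12 transcription factors that act with PU.1 in myeloid cells, 3 were called higher and 0 lower, with a median of 0.57, and *Irf5* (1.81) and *Cebpb* (1.17) were among those called. *Runx1* (0.93, adjusted p = 0.0545 from limma) and *Irf8* (1.02, adjusted p = 0.074 from limma) did not pass the threshold, nor did *Cebpa* (-0.22), *Irf4* (-0.96) and *Klf4* (-1.03).

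Of the 15 macrophage identity genes present, 8 were called higher and 0 lower, with a median of 1.21. *Fcgr1* (2.14), which also stands among the PU.1 targets, *Mpeg1* (1.96), *Aif1* (1.78) and *C1qb* (1.36) had the largest differences of these. Among the 7 that were not called, *Lyve1* was at 0.56 and 0.49 after sham operation and at -1.51 and -0.45 after injury (difference -1.50, adjusted p = 0.061 from limma). For *Cd163* the difference was -0.81 and for *Mertk* 0.14, for *Folr2* 0.69 and for *Mrc1* 0.51. In the costimulation list, which holds the relatives of *Cd86*, *Cd80* was the only gene called of the 5 present (1.25, adjusted p = 0.0373 from limma). *Cd274* (1.002) and *Cd40* (0.91) did not pass the threshold, and *Icosl* was at 0.43 and 0.71 after sham operation and at 0.24 and -0.13 after injury.

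**Figure D4:**
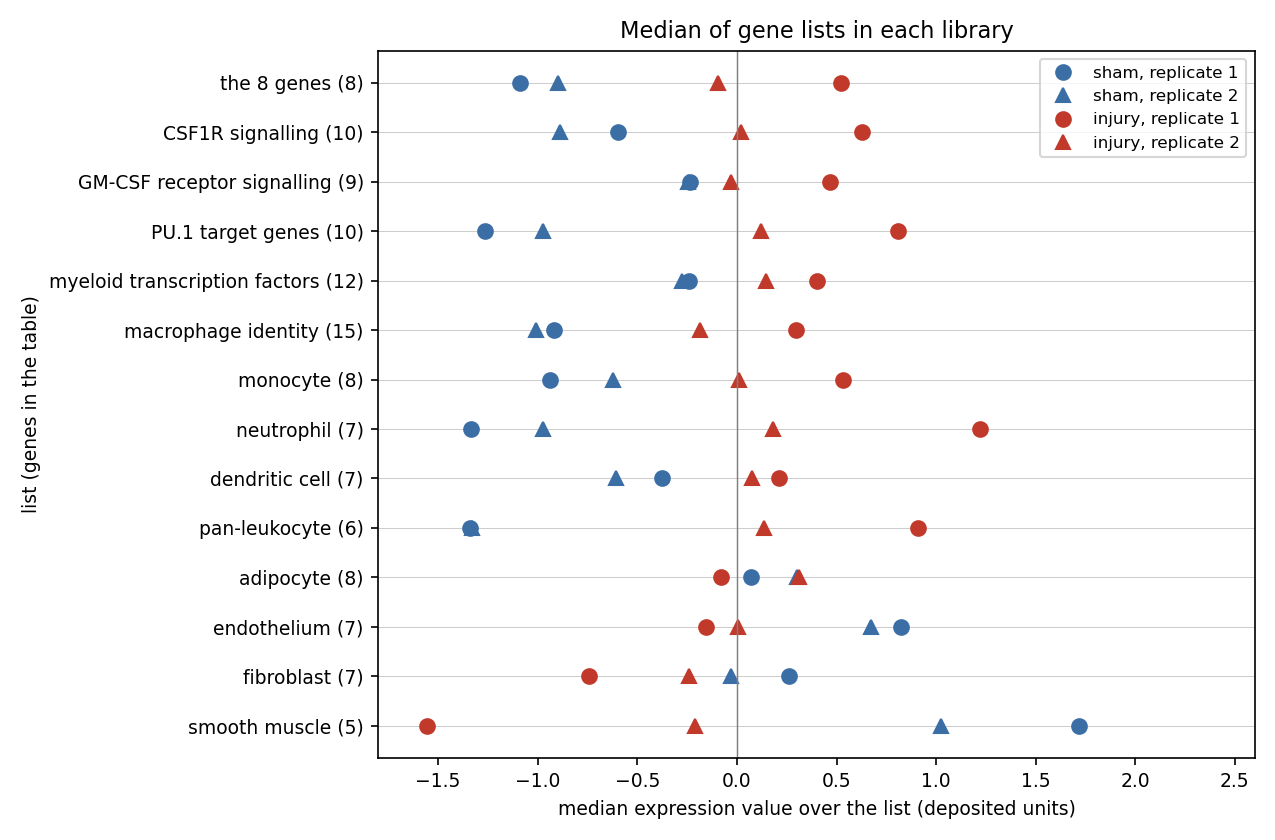
Median expression value of the main gene lists (horizontal axis, deposited units; vertical axis, lists with the number of genes in the table) in the 4 libraries. Injury replicate 1 is the highest library in the pan-leukocyte, macrophage, monocyte and neutrophil lists and the lowest in the adipocyte, endothelium, fibroblast and smooth muscle lists, and its smooth muscle median is -1.55.

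Other cells also carry some of the 8 genes. Of 8 monocyte genes, 1 was called higher, *Ccr2* (2.30), with a median of 0.78. Of 7 neutrophil genes, which include *Csf3r*, *Mmp8* (1.46) and *Retnlg* (1.83) were called higher, with a median of 1.86 and 1.04 between the medians of the injury libraries. Of 7 dendritic cell genes *Itgax* was called higher (1.32), with a median of 0.67. Among lymphocyte genes, *Cd22* (0.98) was called of 2 B cell genes in the table and none of 3 T cell genes, also at an unadjusted p under 0.05. Of 4 eosinophil and mast cell genes and of 7 genes of dividing cells, 0 were called by limma, with 0 and 1 at an unadjusted p under 0.05 and medians of -0.37 and 0.18. *Mki67*, which marks dividing cells, was at -1.46 and -0.26 after sham operation and at -0.42 and -0.28 after injury.

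Markers of stromal and endothelial cells, the known sources of CSF1, were called lower in part. Of 7 endothelial genes 3 were called lower, *Vwf* (-2.40), *Pecam1* (-1.04) and *Erg* (-0.84), and of 7 fibroblast genes 3, *Lum* (-1.04), *Dcn* (-0.996) and *Col1a1* (-0.78). Smooth muscle genes had 4 of 5 called lower, with a median of -2.18, and of 4 skeletal muscle genes 0 were called by limma, with 2 at an unadjusted p under 0.05 and a median of -0.75. The 8 adipocyte markers were all in the table, with a median difference of -0.13, and 4 of them had positive differences, the largest that of *Lpl* (0.65, adjusted p = 0.0953 from limma). Of the others *Plin1* was called lower (-0.74) and *Adipoq* differed by -0.80 (adjusted p = 0.119 from limma), though how abundant they are cannot be read from these values. Over all the lists 11 genes were called lower, and 2 with the replicate block.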

How the data were processed

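The authors removed adaptors (cutadapt 1.18), trimmed (Trimmomatic 0.39), aligned to mm9 (STAR 2.6.0a), counted per gene (featureCounts) and tested with DESeq2 1.28.0 in R 3.6.0, by the study's methods and processing notes. The library kit marks strand; the strand setting of the counting is not given in the sources used here. The deposited values are a score, signed, with library medians near 0, from -2.27 to 6.45, with 50.5% below 0; how the authors made them from counts is not stated, so depth is unknown.

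Injury was compared with sham by limma 3.58.1 in R 4.3.3 (lmFit, eBayes, group only, no filter, all 4 libraries; 3.48 prior and 2 residual degrees of freedom), tested on simulated data. The members and lists were chosen with earlier results of these data known. Genes named by rule are all members, the genes of each list past the threshold, with at most 4 examples a list by size of difference (else the first of the list), and the 3 nearest genes of each member by root mean square difference; other genes named were chosen after their values were seen. The values of 2 genes of the lists are not reported here. No set test was run. Alternatives were a replicate block, each library left out, quantile normalization, columns brought to a common spread, a robust prior, a variance trend, a threshold of 0.1 and identical rows (28 genes) counted once. Positions are from GENCODE on NCBIM37. Python 3.11.15, pandas 2.3.3, Biopython 1.88 and matplotlib 3.10.9 were used.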

Additional observations from a re-analysis of the deposited data

How the results depend on the processing

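Of the 8 genes 3 were called, and 3 or 4 in every alternative with all 4 libraries. Left-out libraries gave 0 to 6: none without sham replicate 1 or 2, *Csf2ra* and *Spi1* without injury replicate 1, and 6 without injury replicate 2 (the lone library of a group is then assumed to vary like the other group). Of the 8 genes, *Csf2rb2* alone changed sign (-0.23 without injury replicate 1, -0.05 without sham replicate 2; -0.23 to 0.38 over the left-out libraries). Over all genes 941 were called by limma, and 0 to 1790 with a library left out; without sham replicate 1 the count was 0, with 1960 genes at an unadjusted p under 0.05. Of 138 genes of the lists 44 were called, and 0 to 73 with a library left out. A threshold of 0.1 gave 2317 genes and 70 of the lists. With the replicate block 684 genes, 4 of the 8 (*Spi1* added) and 33 of the lists were called. Of these 33 list genes 31 were higher and 2 lower, against 33 higher and 11 lower in the main fit. The replicate numbers share only a number (correlation of deviations -0.09 across genes). A filter on low expression was not run, since abundance is unknown. The cause of these changes was not tested.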
